A study of Mus musculus with 38 samples.

Results

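Histone marks were examined at 10 genes that mark cells other than keratinocytes: *Ptprc*, *Cd3e*, *Cd74* and *Lyz2* for leukocytes, *Pecam1* for endothelium, *Pdgfra* and *Pdgfrb* for fibroblasts and mural cells, and *Dct*, *Pmel* and *Mitf* for melanocytes. They are 10 of 21938 protein-coding genes of GENCODE M21 (GRCm38/mm10). The genes were chosen by cell type and not by their marks, though with earlier results of these data known, as a check on other cells in the sorted skin. Each was taken as its gene body with 10 kb on both sides, here called its window. All skin samples came from male K14rtTA; TRE-myc-Sox9 mice, in which doxycycline (DOX), started at postnatal day 21, switches on MYC-tagged SOX9 in keratin 14-expressing epithelium. D0 had no DOX, and W1, W2, W6 and W12 had 1, 2, 6 and 12 weeks of it. The W12 cells came from newborn epidermis grafted onto adult female Nude hosts, which lack T cells but keep other immune cells and blood vessels, so that grafting and time cannot be told apart. Cells were sorted as CD31-, CD45-, CD117- and CD140a-negative, CD49f-high, CD34-negative and Ly6A-high, so 3 of the 10 genes encode a surface protein that was sorted against: *Pecam1* (CD31), *Ptprc* (CD45) and *Pdgfra* (CD140a). The culture samples were unsorted keratinocytes of newborn males with K14rtTA and a TRE-myc-Sox9 variant, kept without DOX or induced to make WT SOX9, ΔHMG-SOX9, which lacks the HMG domain that binds DNA, or ΔTA-SOX9, which lacks the transactivation domain. MINT-ChIP, which pools barcoded chromatin before immunoprecipitation, was done for H3K4me1 and H3K27ac in skin and for H3K4me1 in culture.

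H3K4me1 lies on primed and active enhancers and around promoters, and H3K27ac on enhancers and promoters in use. In a cell that expresses a lineage gene strongly, the promoter of that gene is usually acetylated, whereas in other lineages the same promoter is often bare or carries polycomb marks. Acetylation over the promoter of a leukocyte or vessel gene in a sorted epithelial fraction is therefore one place to look for other cells. By the labels, every group had samples of a high and of a low digest with micrococcal nuclease (MNase). The culture labels name the 2 digests and no replicates. Each of the 14 interval lists pools the samples of its group, so the values below have no replicate check and no test was possible. Where 5 values are given in time order, they run from D0 through W1, W2 and W6 to W12. A mark on a few cells of another type and a weak mark on many sorted cells cannot be told apart in such lists.

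H3K4me1 was present in the windows of most of the 10 genes, as it was among genes at large. H3K27ac was present in 3 to 5 of them, below the share of all genes but close to it at W1 and W12. In time order, an H3K4me1 domain overlapped 9, 8, 9, 8 and 9 windows, beside 79.9%, 76.9%, 77.7%, 79.2% and 78.0% of all protein-coding genes. An H3K27ac peak overlapped 4, 5, 3, 4 and 5 windows, beside 58.7%, 58.5%, 58.0%, 60.5% and 59.1% of all genes. *Pecam1*, *Pmel* and *Mitf* had acetylation in all 5 lists, which makes 3 of 10 against 46.3% of all genes. The other acetylated windows changed from list to list, with *Cd3e* at D0, *Pdgfra* and *Dct* at W1, *Ptprc* at W6, and *Ptprc* and *Pdgfra* at W12. *Cd74*, *Lyz2* and *Pdgfrb* had no H3K27ac peak in any list.

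At start sites the marks differed more. Within 1 kb of an annotated start, H3K4me1 was called at 8, 6, 6, 6 and 7 of the 10 genes in time order, and at 68.9%, 64.3%, 65.2%, 68.0% and 64.7% of all genes. H3K27ac was called at the starts of 1, 2, 1, 2 and 2 of the 10, and at those of 44.5%, 43.1%, 44.1%, 48.4% and 36.2% of all genes. The acetylated starts were *Pmel* at D0, W1 and W2, *Dct* at W1, and *Pecam1* and *Mitf* at W6 and W12. The starts of *Ptprc*, *Cd3e*, *Cd74*, *Lyz2*, *Pdgfra* and *Pdgfrb* were never acetylated. The 14 basal keratinocyte markers, listed from textbook knowledge, gave the reverse picture, with H3K27ac at the start of all 14 at D0, W1, W2 and W6 and of 13 at W12, where *Krt15* had none.

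**Figure D1:**
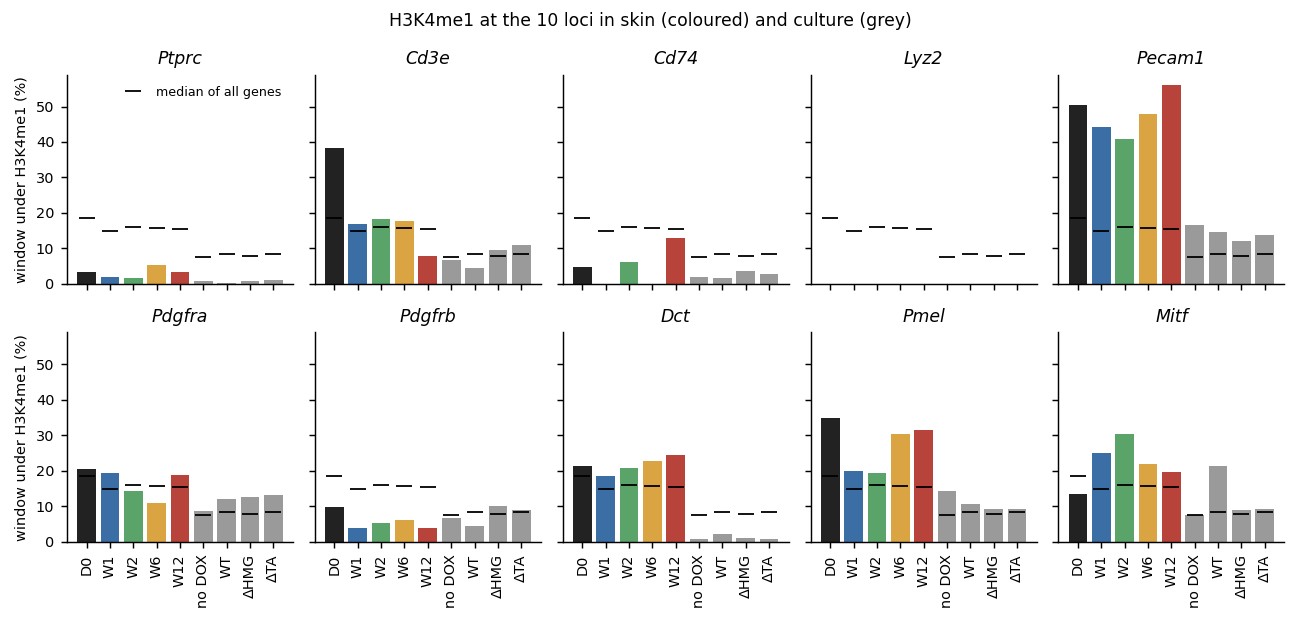
Percentage of each gene's window (gene body with 10 kb on both sides) under H3K4me1 intervals in the 5 pooled skin lists (coloured bars) and the 4 pooled culture lists (grey bars), with the median of all protein-coding genes of each list as a dash. Lyz2 is at 0 throughout, Pecam1 is highest in every skin list (40.7% to 56.2%), and Mitf in culture stands at 21.3% with WT SOX9 against 7.52% to 9.30% in the other lists.

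The amount of H3K4me1 at the 10 windows was close to that of other genes. The median window of the 10 was covered for 14.2% to 17.7% of its length across the 5 skin lists, and the median of all genes was 14.9% to 18.5%. Between 5 and 6 of the 10 lay above the median of all genes in each skin list. For H3K27ac the median of the 10 was 0 to 0.265% and that of all genes 0.836% to 1.47%.

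*Ptprc*, on chromosome 1 (138062861-138175708, minus strand), encodes CD45, the phosphatase found on nearly all white blood cells. H3K4me1 covered 3.31%, 1.81%, 1.66%, 5.42% and 3.31% of its window in time order, between the 23.7th and the 29.7th percentile of all genes. One intronic domain, 20467 to 21867 bp inside the gene, was called in all 5 lists, and none of the 14 lists had an interval within 1 kb of a *Ptprc* start. H3K27ac was called at 2 places, each in 1 list. At W6 it was a 299 bp intronic peak of fold 3.58 over background with a pileup of 5 fragments, and at W12 a 720 bp peak 4627 bp upstream of the start with fold 4.96 and a pileup of 6. The W12 peak lay in an H3K4me1 domain that was called at W6 and W12, and the same place was marked in culture without DOX, with ΔHMG and with ΔTA (fold 4.47, 4.49 and 4.52). The culture mark was H3K4me1 and was not called there with WT, and H3K27ac was not profiled in culture. The culture was not sorted, so which of its cells carried the mark cannot be told. Its 200 bp around the W12 summit are shown because it is, of the 4 leukocyte genes among the 10, the one acetylated site at W12, with the letters ACAAAG of a SOX site (here on the other strand) in capitals. These letters were found around 15.9% of all W12 summits.
Ptprc, W12, chr1:138180342-138180541: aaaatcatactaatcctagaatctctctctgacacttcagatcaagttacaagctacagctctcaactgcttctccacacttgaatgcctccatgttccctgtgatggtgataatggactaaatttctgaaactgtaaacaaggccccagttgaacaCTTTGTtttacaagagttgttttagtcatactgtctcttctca

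*Cd3e* encodes a chain of the T cell receptor complex and lies on chromosome 9 (44998740-45009627, minus strand). H3K4me1 over its window was highest before DOX, with 38.2%, followed by 16.9%, 18.2%, 17.6% and, in the grafts of W12, 7.86%. The D0 value was at the 75.8th percentile of all genes and the W12 value at the 34.7th. The mark lay mostly upstream of the gene. A single domain of 8400 bp at D0, which reached to 988 bp from the start, gave way to 2 shorter domains in each later list, which were 1000 and 3600 bp wide at W1 and 1400 and 1800 bp wide at W12. H3K27ac was called only at D0, as an 820 bp peak 3954 bp upstream of the start with fold 8.0 and a pileup of 11 fragments, and an H3K4me1 domain covered this place in all 5 lists. W12 was the list with the least H3K4me1 at *Cd3e*. This was so with 10 kb on both sides of the gene, but with 50 kb flanks W12 was not below every earlier list. Without flanks W12 had no H3K4me1 at *Cd3e*, as W2 and W6 had none. With the higher-scoring intervals alone W12 had none, as W1 and W2 had none. Of the 9 genes on a longer list of T cell markers, 2 (*Cd3e* and *Cd247*) had their lowest H3K4me1 coverage at W12, beside 19.5% of all genes. The 200 bp around the D0 summit are shown as the only acetylated site at *Cd3e*, with 1 match to the RUNX letters TGTGGT (as ACCACA) in capitals, which were found around 12.9% of all D0 summits.
Cd3e, D0, chr9:45013809-45014008: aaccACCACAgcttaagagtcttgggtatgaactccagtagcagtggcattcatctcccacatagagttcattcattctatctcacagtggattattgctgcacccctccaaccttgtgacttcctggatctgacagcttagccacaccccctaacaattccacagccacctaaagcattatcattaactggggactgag

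*Cd74*, the invariant chain that escorts MHC class II proteins, had less H3K4me1 than the median of all genes in every skin list, W12 included. Coverage in time order was 4.70%, 0, 6.09%, 0 and 13.0%, the last at the 45.4th percentile of all genes. A 1200 bp domain lay over its start at D0 and again at W12, and a further domain of 2400 bp inside the gene was called at W12 alone among the skin lists. *Cd74* was not acetylated in any list, W12 included. *Lyz2*, the lysozyme of macrophages and neutrophils on chromosome 10 (117277331-117282321, minus strand), was the only one of the 10 without an interval of either mark in all 14 lists, as were 12.1% of all genes. Of 4952 words of 40 bases in the *Lyz2* body, 22.4% have an exact copy around the neighbouring *Lyz1*, where a single read of that length cannot be placed by itself. The paper gives longer, paired reads for this assay, for which the share was not counted. The part of such copies in the empty window was not tested.

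*Pecam1* was the most marked of the 10 genes although its product, CD31, was sorted against. It encodes the adhesion protein at the junctions of endothelial cells, found also on platelets and some leukocytes, and lies on chromosome 11 (106654217-106750628, minus strand). H3K4me1 covered 50.3%, 44.2%, 40.7%, 47.8% and 56.2% of its window in time order, at the 81.8th to the 93.4th percentile of all genes. Under H3K27ac lay 12%, 7.49%, 11.5%, 13.3% and 10.9%, at the 87.0th to the 96.9th percentile. There were 12, 12, 11, 13 and 11 peaks in that order. Joined across lists they made 12 sites, of which 6 were acetylated in all 5 lists and 2 in a single list, at W1 and W6.

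Most acetylation of *Pecam1* lay deep in the gene and away from its starts. The strongest site, in an intron 37614 to 39317 bp from the start, had folds of 36, 12.3, 24.6, 21.5 and 17.0 in time order, with pileups of 53, 15, 34, 35 and 23 fragments. It ranked within the top 6.7% of peaks in each list and within the top 1.6% at D0, W2 and W12. These folds are ratios to the background of each list and were not set against each other between lists. The 200 bp around the D0 summit of this site are shown as the strongest acetylation at any of the 10 genes, with the SOX letters ACAAAG in capitals. Around all D0 summits they were found in 14.4%.
Pecam1, D0, chr11:106675111-106675310: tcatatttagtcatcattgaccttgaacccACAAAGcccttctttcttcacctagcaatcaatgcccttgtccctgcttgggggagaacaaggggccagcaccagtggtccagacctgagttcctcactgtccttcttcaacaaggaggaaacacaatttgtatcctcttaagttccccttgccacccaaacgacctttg

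A further acetylated site lay near the cluster of *Pecam1* starts in every list, at a varying distance. At D0, W1 and W2 it ended 1402, 1009 and 1520 bp inside the gene, just outside the 1 kb limit. At W6 a 304 bp peak of fold 4.77 and a pileup of 7 fragments began 924 bp from the start, and at W12 a peak of 1622 bp, fold 14.9 and a pileup of 20 reached to 685 bp. The W12 peak was within the top 2.4% of its list. H3K4me1 covered these starts in all 5 skin lists, and no peak of either mark in skin lay at the farthest upstream start. In culture H3K4me1 covered 16.6% of the *Pecam1* window without DOX, 14.6% with WT, 12% with ΔHMG and 13.8% with ΔTA. Of the 7 H3K4me1 sites seen in skin, 6 also held a culture peak, and 4 sites were called in all 4 culture lists. The stretch inside the gene with most of the skin acetylation was among them. A culture peak without DOX and one with ΔTA lay at the farthest upstream start, and both were also within 1 kb of a start of the neighbouring *Milr1*.

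**Figure D2:**
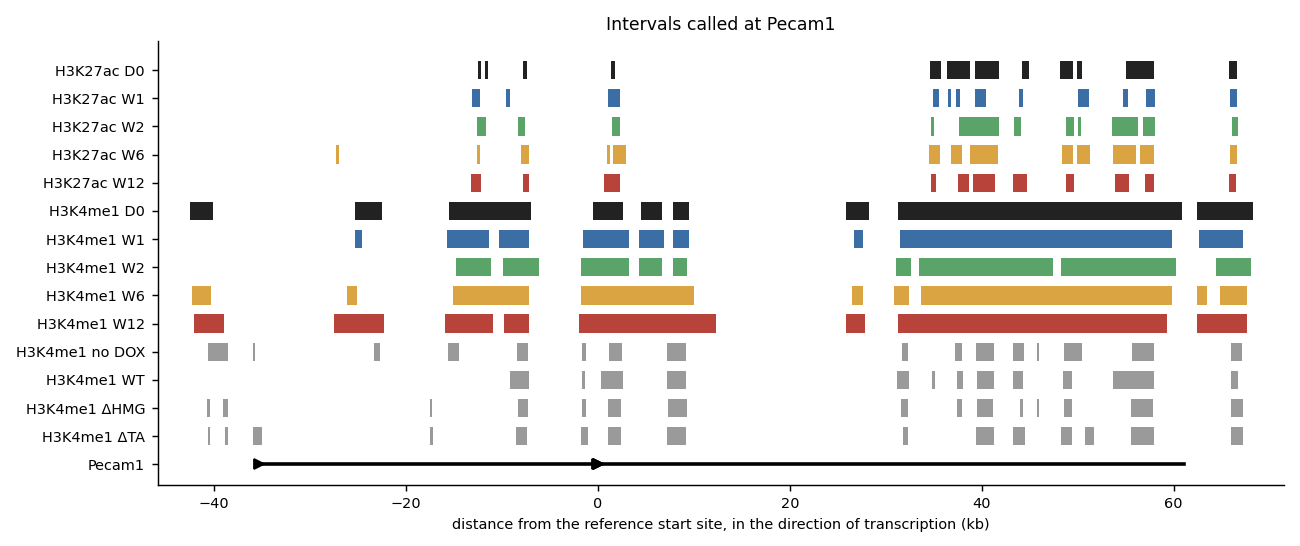
Intervals called at Pecam1 and in 10 kb on both sides, by distance in kb from the main start cluster in the direction of transcription, with H3K27ac of skin in the upper rows, H3K4me1 of skin (coloured) and culture (grey) in the lower rows, and the gene with its start sites (arrowheads) at the bottom. The block of H3K27ac peaks deep inside the gene recurs in all 5 skin lists inside H3K4me1 domains, while the peak nearest the start is widest at W12.

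The mesenchymal genes kept H3K4me1 at their starts and had almost no acetylation. *Pdgfra* encodes the PDGF receptor of dermal fibroblasts, CD140a, and lies on chromosome 5 (75152292-75198215, plus strand). H3K4me1 covered 20.6%, 19.4%, 14.3%, 10.9% and 18.8% of its window in time order. A domain over the starts was 6800 to 9400 bp wide in 4 lists and was split into 3400 and 4200 bp at W2. These starts were marked in all 4 culture lists as well. H3K27ac was called at W1 as a 349 bp intronic peak of fold 3.73, and at W12 as a 317 bp peak of fold 16.2, 6713 bp upstream of the gene. The W12 peak was within the top 1.5% of its list by score, but 64.4% of it was masked as repeats and no H3K4me1 list overlapped it. The W1 peak, 62.2% masked, also had no H3K4me1 under it. Whether the repeats bear on these calls was not tested.

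*Pdgfrb*, on chromosome 18, encodes the PDGF receptor of pericytes and smooth muscle. H3K4me1 covered 9.68% of its window at D0 and 4.01% to 6.01% later, with the same 2 sites, one over the start and one beginning 20001 to 20201 bp inside the gene, in all 5 lists. The domain over the start was 800 to 2000 bp wide. In culture the start was marked in all 4 lists, and 9 of the 12 *Pdgfrb* sites were seen in culture and not in skin. One of them, 44297 to 44309 bp from the start and past the end of the gene, had fold 5.49 without DOX, 6.11 with WT, 5.09 with ΔHMG and 4.35 with ΔTA, within the top 0.8% of each culture list. It had no H3K4me1 in the 5 skin lists. One peak with ΔHMG, upstream of *Pdgfrb*, lay at a start of the neighbouring *Cdx1*, an intestinal homeobox gene.

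**Figure D3:**
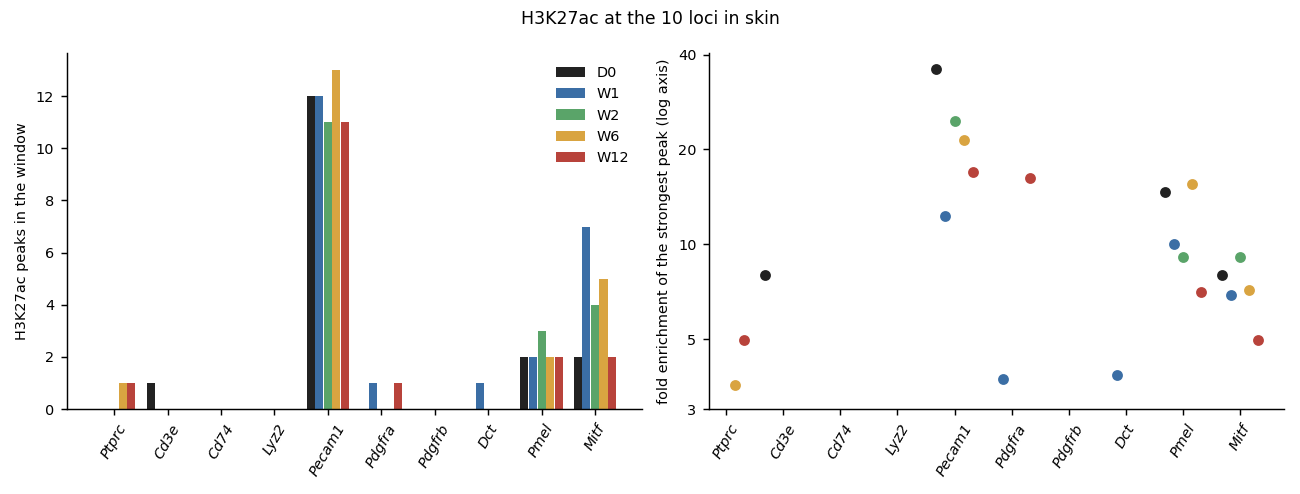
Number of H3K27ac peaks in each window (left) and fold enrichment over background of the strongest one (right, log axis) in the 5 pooled skin lists, with no point where no peak was called. Pecam1 has 11 to 13 peaks in every list, Pmel and Mitf have 2 to 7, and the other genes have 1 peak in at most 2 lists or none.

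The melanocyte genes did not behave alike. *Dct*, or dopachrome tautomerase, an enzyme of melanin synthesis, lies on chromosome 14 (118012790-118052244, minus strand). H3K4me1 covered 21.5%, 18.5%, 20.9%, 22.9% and 24.6% of its window in time order. The domain over its start was 6400, 7200, 4000, 5600 and 3400 bp wide in that order, and 2 of its 8 sites were shared by all 5 lists. In culture *Dct* had 1 peak in each list, at the start, and a coverage of 0.698% without DOX, 2.24% with WT, 1.08% with ΔHMG and 0.71% with ΔTA. The only H3K27ac peak, at W1, was 325 bp wide, lay 987 bp inside the start, and had fold 3.85 and a pileup of 4 fragments, 1 above the smallest pileup of that list. Its surroundings are shown as the only acetylation near the start of a pigment enzyme gene, with the RUNX letters TGTGGT, found around 13.0% of W1 summits, in capitals.
Dct, W1, chr14:118051000-118051199: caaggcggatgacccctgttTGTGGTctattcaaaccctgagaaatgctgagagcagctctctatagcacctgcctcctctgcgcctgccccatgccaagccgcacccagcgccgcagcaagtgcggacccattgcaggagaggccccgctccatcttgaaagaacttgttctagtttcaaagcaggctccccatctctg

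*Pmel* encodes the fibril protein of melanosomes and lies on chromosome 10 (128704195-128720238, plus strand) between *Cdk2*, a cell cycle kinase, and *Rab5b*, an endosomal GTPase. H3K27ac was called at 2 sites in all 5 lists, and both lay within 1 kb of a start of these neighbours. The peak at *Rab5b* had folds of 14.7, 8.47, 9.12, 15.5 and 7.08 in time order, and the one at *Cdk2* had 13.3, 10, 8.42, 13.7 and 7.08. *Pmel* was counted as acetylated at its own start at D0, W1 and W2 because the *Cdk2* peak came within 918, 414 and 423 bp of it. At W6 and W12 the nearest peak ended 1018 and 1489 bp away. With peaks at other genes' starts left out, *Pmel* had no H3K27ac. H3K4me1 covered 35%, 20%, 19.4%, 30.5% and 31.6% of the window in time order, and one domain inside the gene body, away from both neighbours, was called at D0, W6 and W12.

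*Mitf*, the master regulator of melanocytes, has several promoters along chromosome 6 (97807052-98021349, plus strand). The far upstream ones serve forms found in many tissues, and the one nearest the coding exons serves the melanocyte form. The upstream starts at 97807052 and 97807058 had H3K4me1 in all 5 skin and all 4 culture lists. The start at 97929799 had it in 4 skin lists, all but W2, and in all 4 culture lists. The start at 97940918 had it at W2 and in culture with WT and ΔTA. The last pair of starts, at 97991792 and 97991921, had no interval of either mark within 1 kb in any of the 14 lists.

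H3K4me1 and H3K27ac at *Mitf* took different courses in skin. H3K4me1 covered 13.5%, 24.9%, 30.5%, 21.8% and 19.6% of the window in time order, so that D0 was lowest, with 11, 15, 14, 20 and 17 domains. H3K27ac was called as 2, 7, 4, 5 and 2 peaks. These made 12 sites, of which none was shared by all 5 lists and 9 were in 1 list. A site whose strongest peak began 18734 to 21311 bp inside the gene was acetylated at D0, W1, W2 and W6, with folds of 4.0, 6.93, 9.12 and 7.16 for its strongest peak, and a second, 40427 to 40938 bp inside, at D0, W1 and W2, with 8.0, 5.39 and 4.91. Neither was called at W12. At W6, 2 peaks of fold 5.96 and 4.77 lay at the upstream start. The W12 peaks were seen in no earlier list, one of 438 bp (fold 4.12) outside any H3K4me1 domain and one of 319 bp (fold 4.96, pileup 6) that began 297 bp after the start at 97929799. The latter is shown as the highest-scoring acetylation within the body of one of the 10 genes that first appeared at W12, with the letters ACAATG of a SOX2-type site (as CATTGT) in capitals, which were found around 8.99% of W12 summits. It ends in a run of TG repeats, and 29.0% of these 200 bp were masked as repeats.
Mitf, W12, chr6:97930186-97930385: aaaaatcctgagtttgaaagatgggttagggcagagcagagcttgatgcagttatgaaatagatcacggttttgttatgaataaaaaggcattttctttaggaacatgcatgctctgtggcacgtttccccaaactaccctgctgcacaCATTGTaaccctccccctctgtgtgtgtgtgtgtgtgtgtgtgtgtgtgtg

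**Figure D4:**
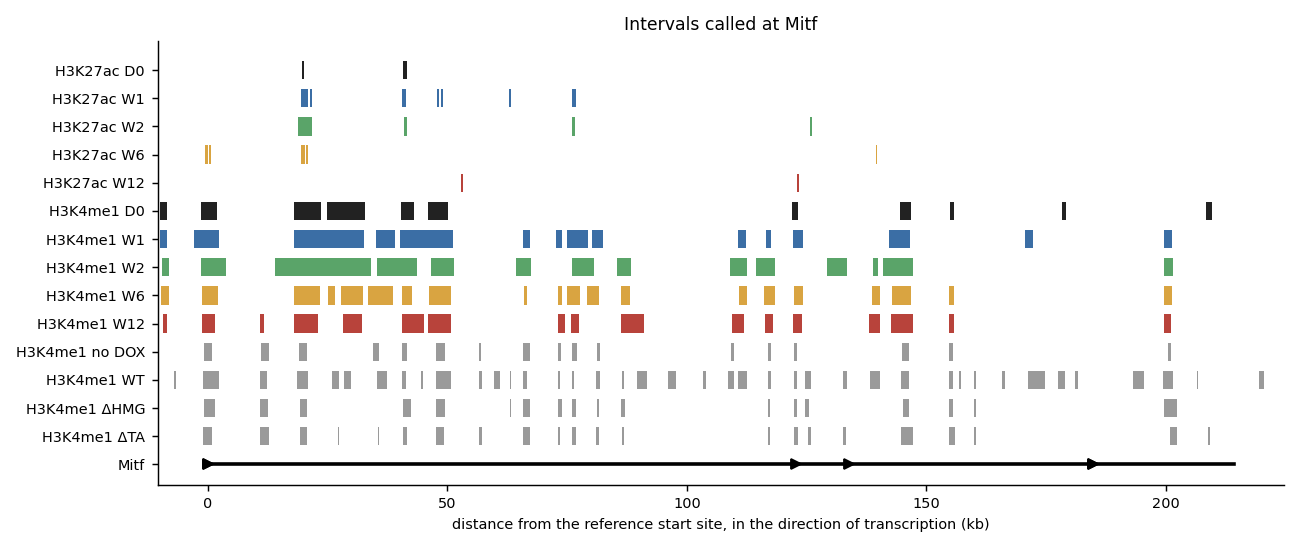
Intervals called at Mitf and in 10 kb on both sides, by distance in kb from the first start site in the direction of transcription, laid out as in the map of Pecam1, with the start sites as arrowheads. H3K27ac peaks differ between the lists, the culture list with WT SOX9 has 40 H3K4me1 peaks against 17, 18 and 22 in the others, and no interval lies at the last start sites.

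In culture all of the 10 windows but that of *Lyz2* held an H3K4me1 peak in each list, 9 without DOX (81.8% of all genes), 9 with WT (82.1%), 9 with ΔHMG (82.6%) and 9 with ΔTA (83.5%). Over all 9 H3K4me1 lists of skin and culture, 8 of the 10 were marked each time, and 71.8% of all genes were. At start sites the counts were 7 without DOX (56.8%), 6 with WT (57.7%), 4 with ΔHMG (53.4%) and 7 with ΔTA (54.2%). The starts marked without DOX and not with ΔHMG were those of *Cd74*, *Pecam1* and *Pmel*. The median window of the 10 was covered for 6.73%, 4.45%, 9.11% and 9.11% in that order, and the median of all genes for 7.62% to 8.41%. Coverage was higher in all 5 skin lists than in all 4 culture lists for *Ptprc*, *Pecam1*, *Dct* and *Pmel*, that is 4 of 10 and 50.2% of all genes. The intervals of all genes were wider in the skin lists than in the culture lists, with median widths of 2400 to 2800 bp and 833 to 930 bp, and the part of width in this order was not tested.

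*Mitf* stood out in culture with WT SOX9. Its coverage was 7.52% without DOX, 21.3% with WT, 8.97% with ΔHMG and 9.30% with ΔTA, and 17 of its 40 peaks with WT overlapped no peak of the other 3 lists. For comparison, 0, 0 and 1 *Mitf* peaks were particular to the list without DOX, ΔHMG and ΔTA. The WT value exceeded the highest of the other 3 by 11.96 percentage points, a difference at the 99.6th percentile of all genes, and *Mitf* was picked out for this after its values were seen. WT was the highest of the 4 lists at *Dct* as well, so at 2 of the 10 genes, and at 30.6% of all genes. The WT list was of similar length to the others (116042 peaks against 110589 to 123338). The 2 culture samples, a high and a low MNase digest, are pooled, so that this difference has no replicate check.

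Set beside the earlier skin lists, W12 brought no new window, and such windows were rare among all genes too. Of the 10, 0 had H3K4me1 at W12 and in no earlier list (0.424% of all genes), and 0 had H3K27ac in this way (4.59%). For H3K27ac this changed with the score, the length of the lists and the pileup. H3K4me1 coverage at W12 was above all 4 earlier lists at *Cd74*, *Pecam1* and *Dct* (11.3% of all genes) and below all 4 at *Cd3e* (19.5%). H3K27ac coverage at W12 was above all 4 at *Ptprc* (11.0%) and below all 4 at *Pmel* and *Mitf* (29.1%). D0, in turn, had the highest H3K4me1 coverage of the 5 lists at *Cd3e*, *Pdgfra*, *Pdgfrb* and *Pmel*, 4 of 10 against 31.8% of all genes, and the highest H3K27ac coverage at *Cd3e* and *Pmel*, 2 of 10 against 12.1%.

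Some single peaks in the 10 windows were first called at W12. Of the 17 H3K27ac peaks in the 10 windows at W12, 4 overlapped no earlier peak (1 at *Ptprc*, 1 at *Pdgfra* and 2 at *Mitf*), whereas 40.8% of all 33985 W12 peaks did so. For H3K4me1 the share over all domains was 4.49%. H3K4me1 of the same time lay under 17 of 17, 21 of 23, 17 of 18, 20 of 21 and 14 of 17 peaks in time order. Depth differed between the H3K27ac lists, with median pileups of 8, 6, 8, 11 and 7 fragments, and W12 peaks were the narrowest, with a median of 476 bp against 635 to 821 bp. The W12 H3K27ac list alone has a cutoff-like tag in its name. The parts of depth and of caller settings in the peaks called at 1 time point were not tested.

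Longer lists of markers, written from textbook knowledge, placed the 10 genes among others of their lineage. Over the 5 skin lists 58.0% to 60.5% of all genes had an H3K27ac peak in the window, and 4.59% first had one at W12. At W12 an H3K27ac peak lay in the windows of 6 of 8 endothelial genes, compared with 2, 2, 2 and 1 in the earlier lists. The added genes were *Cdh5*, *Emcn* and *Egfl7*, which no earlier list had, and *Tek* and *Flt1*, which earlier lists had at times. In these 5 genes the peaks covered only 0.231% (*Tek*) to 1.62% (*Egfl7*) of the window at W12. The median of the 8 endothelial genes was then 0.642%, beside 0.836% for all genes. Fibroblast genes were acetylated in 5 of 8 windows at W12 and in 1, 4, 1 and 1 before, with none at a start in any list. Leukocyte genes stood at 2, 2, 2, 3 and 4 of 5 in time order, mast cell genes at 1, 1, 1, 1 and 3 of 5, and antigen presentation genes at 0, 1, 0, 0 and 2 of 6. T cell genes (4, 4, 2, 3 and 3 of 9), myeloid genes (4 of 8 in every list) and mural genes (3, 4, 3, 3 and 4 of 7) had no more at W12 than in their highest earlier list. Melanocyte genes stood at 3, 3, 2, 2 and 4 of 9. *Pmel* is counted in every one of these, by the peaks at the starts of its neighbours. In none of the marker lists were peaks at other genes' starts left out. The fibroblast and mast cell counts at W12 were close to the 59.1% of all genes in that list. The endothelial count of 6 of 8 was not far above it. Windows first acetylated at W12 were 3 of 8 for endothelial, 2 of 8 for fibroblast, 2 of 5 for mast cell, 2 of 6 for antigen presentation, 1 of 5 for leukocyte and 1 of 9 for melanocyte genes, and 0 for T cell, myeloid and mural genes. The starts acetylated at W12, where 36.2% of all genes had one, were those of *Pecam1*, *Emcn* and *Flt1* in endothelium, *Mitf* and *Ednrb* in melanocytes, *Acta2* and *Cspg4* in mural cells, *Lck* in T cells, *H2-Eb1* in antigen presentation, *Cma1* in mast cells and *Cd14* in myeloid cells. Of these starts, *Acta2* and *Cspg4* were acetylated in all 5 lists, *Cd14* also at W1, and *Pecam1* and *Mitf* also at W6. No leukocyte start was acetylated in any list. H3K4me1 coverage at W12 was above all 4 earlier lists at 4 of 6 antigen presentation and 4 of 8 endothelial genes (11.3% of all genes). It was so at 3 of 9 melanocyte, 2 of 7 mural and 0 of 9 T cell genes. The count was 1 each for leukocyte, myeloid, mast cell and fibroblast genes. Coverage was below all 4 at 2 of 9 T cell and 1 of 7 mural genes and at none in the other non-epithelial lists (19.5%). Genes outside the 10 were named in these counts after their values were seen.

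The 7 genes of the sort scheme can be set beside these counts. *Itga6* (CD49f) and *Ly6a*, which were sorted for, had H3K27ac at their starts in all 5 lists. Of the antigens sorted against, *Kit* (CD117) had no H3K27ac until W12, when 1 peak covered 0.431% of its window, and *Cd34* had 2 peaks at W2 and 2 at W12, none at a start. With *Ptprc* and *Pdgfra* included, all 7 had a peak in the window at W12, against 3 before DOX and 4 in each list between. Among all genes the share was 59.1% at W12 and 58.7% at D0. At a start, only *Pecam1*, *Itga6* and *Ly6a* of the 7 had a peak at W12. Over the same lists the basal keratinocyte windows held acetylation in 14 of 14 genes, and in 13 at W12. *Krt5* and *Krt14*, the keratins of the basal layer, had 27.6% and 28.1% of their windows under H3K27ac at W12, against 37.6% and 33.5% at D0. H3K27ac coverage at W12 was the lowest of the 5 lists at 9 of the 14 basal genes, both of these included. Among all genes the share was 29.1%. The median of the 14 basal genes at W12 was 16.8%, and 6 of the 14 lay below the 10.9% of *Pecam1*. Neither the share of other cells nor the part of caller settings in the W12 counts was tested. The number of other cells cannot be read from peak lists.

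**Figure D5:**
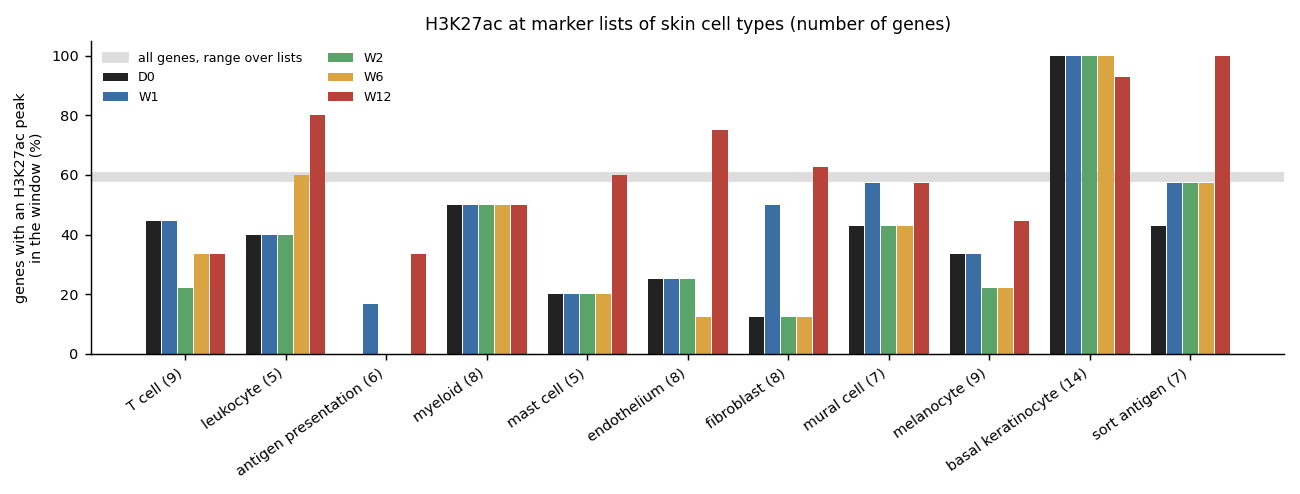
Percentage of the genes of each marker list with an H3K27ac peak in the gene body or 10 kb on both sides, in the 5 pooled skin lists, with the number of genes in brackets and the range of all protein-coding genes over the 5 lists as a grey band. Endothelial genes go from 1 to 2 of 8 in the earlier lists to 6 of 8 at W12, and basal keratinocyte genes stay at 13 or 14 of 14.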

How the data were processed

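Pooled interval lists of 14 groups were analysed, 5 of H3K4me1 and 5 of H3K27ac from sorted skin and 4 of H3K4me1 from culture, made from 26 of 38 samples. Total H3 and 14 barcode files were not used here. The authors trimmed reads with Skewer, aligned them to GRCm38/mm10 with Bowtie2 (2.2.9), removed duplicates with Picard, merged replicates with SAMtools (1.9), and called H3K27ac with MACS2 (2.1.1) and H3K4me1 with epic2. Versions are from the submitters' processing notes. Caller settings, and the caller used for culture, were not given in the sources used here. The W12 H3K27ac list alone has a tag in its name that looks like a cutoff. Whether it was called with other settings than the earlier lists was not tested. The deposited H3K4me1 skin lists give a p-value per domain. The deposited H3K27ac and culture lists give a score, a fold enrichment (a ratio over background), and −log10 p-values, with −log10 q values that were not used here. W12 was sequenced in the same libraries as W2 replicate 1 and told apart by barcode, per the labels.

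Windows were gene bodies of GENCODE M21 with 10 kb flanks, on 21 chromosomes, and an overlap of 1 bp counted. Percentages over all 21938 protein-coding genes were computed in the same way. Every one of the 10 genes is named, as is a neighbour whose start lies in a window under an interval. The rule for sequences took the highest-scoring H3K27ac peak at W12 in a gene body or at a start that no earlier list overlapped, and that at a start at D0. The latter, at *Pmel*, overlaps a UTR and is not printed, and the other 4 sequences shown were chosen after the values were seen. Sequences are from the GRCm38 RefSeq assembly, on its forward strand and 5′ to 3′. Both strands were searched for 8 motifs: the AP-1 palindrome TGANTCA, the general SOX hexamer ACAAAG, its SOX2-preferred variety ACAATG, the RUNX hexamer TGTGGT, the GATA-family hexamer AGATAA, the ETS-family hexamer CGGAAG, the E-box hexamer CACGTG and the melanocyte M-box hexamer CATGTG, whose matches are in capitals. The pileup of 82.3% to 95.9% of H3K27ac peaks was recovered from the even steps of the fold, within 0.002 of a whole number. A pileup is a count of fragments, and the smallest was 3 to 5 per list. Functions were tested on simulated data. Python 3.11.15, pandas 2.3.3 and pysam 0.24.0 were used. The genes and marker lists were chosen with earlier results of these data known. Groups were taken from the labels, and no replicate values or tests could be had.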

Additional observations from a re-analysis of the deposited data

How the results depend on the processing

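Of 162 recomputed counts of genes, 139 stayed within 1.5 times the count given above and 23 did not. Joining intervals under 1000 bp apart, an overlap of 50% of the shorter, and leaving out intervals at other genes' starts moved none. Without flanks, windows with H3K27ac at W12 fell to 3, and 0 genes had W12 H3K27ac coverage above every earlier list. With flanks of 50 kb, windows with H3K27ac in the lists other than W1 were 7, 6, 7 and 8 in time order, and W12 coverage exceeded every earlier list at 1 gene for H3K4me1 and at 2 for H3K27ac. With intervals above the median score, H3K4me1 windows were 5 at W1 and 5 at W2, H3K27ac windows 3 at W1 and 3 at W12, windows first marked at W12 were 1 for each mark (*Pdgfrb* for H3K4me1, *Pdgfra* for H3K27ac), and W12 H3K27ac coverage exceeded every earlier list at 2. With lists of equal length, 1 window (*Ptprc*) was first acetylated at W12. With H3K27ac peaks of a pileup of 6 or more, a choice made after seeing the data, W1 had 3 windows. In that setting 2 windows (*Ptprc* and *Pdgfra*) were first acetylated at W12. For this the pileup was taken from the fold and the background of the list at all peaks. At *Pdgfra* no whole-number pileup was recovered at W1 or W12, so its place here is uncertain. With 2500 bp around a start, acetylated starts were 2 at D0 and 2 at W2, *Pecam1* being added, and 7 starts had H3K4me1 with ΔHMG. With only the 5′ end of the gene model, acetylated starts were 1 at W1 and 1 at W12. That no window was first acetylated at W12 thus depends on the score, the length of the lists and the pileup. Equal counts did not always hold the same genes. The 1 gene with W12 H3K4me1 coverage below every earlier list was *Cd3e*, but *Pdgfrb* without flanks or with flanks of 50 kb and *Mitf* above the median score. W12 H3K27ac coverage above every earlier list was at *Ptprc*, but at *Pecam1* and *Pdgfra* above the median score, where *Cd74* and *Dct* also left the genes highest in H3K4me1 at W12. The causes were not tested.

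No paired analysis was possible because each list pools the samples of its group, and for the same reason no replicate was left out. The shallowest H3K27ac list, W1, was called down to a pileup of 3 fragments and the deepest, W6, to 5, and which low peaks this leaves out of a list was not tested.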
